A study of Mus musculus with 117 samples.

Results

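The chromatin of 10 genes of bile acid synthesis and transport was described in hepatocytes of 9 inbred mouse strains. The genes were Cyp7a1, Cyp8b1, Cyp27a1, Baat, Nr1h4, Nr0b2, Abcb11, Abcb4, Slc10a1 and Slco1b2, taken as a named list out of 21631 genes that code for proteins and lie on an autosome or the X chromosome, each read over its span padded by 2 kb. The strains were the wild-derived CAST/EiJ, PWK/PhJ and WSB/EiJ, and the classical NZO/HlLtJ, NOD/ShiLtJ, DBA/2J, C57BL/6J, A/J and 129S1/SvImJ, which share ancestry. All mice were females of 12 weeks, the cells were labelled hepatocytes from liver, and the labels name no treatment. Each strain had 13 libraries of chromatin immunoprecipitation sequencing (ChIP-seq): 3 mice for each of the histone marks H3K4me1, H3K4me3, H3K27ac and H3K27me3, and 1 input. The study related differences in histone marks between strains to genetic variation and gene expression. The deposited data hold 1 segmentation per strain, in which each stretch of 200 bp carries 1 of 14 state numbers, so there is no value per mouse and the sequencing depth is unknown. A state number is used only as a name, no mark is assigned to it, and every SD below is over the 9 strains.

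Bile acids are made from cholesterol in hepatocytes. Cyp7a1 encodes the rate-limiting enzyme of the classical route, Cyp8b1 the sterol 12-alpha-hydroxylase needed for cholic acid, and Cyp27a1 the mitochondrial sterol 27-hydroxylase of the alternative route. Baat joins the finished acids to taurine or glycine. Nr1h4 encodes FXR, the nuclear receptor that binds bile acids, and its target Nr0b2 encodes SHP, a repressor of Cyp7a1. Abcb11 encodes the bile salt export pump and Abcb4 the phosphatidylcholine floppase of the canalicular membrane. Slc10a1 (NTCP) and Slco1b2 (OATP1B2) take bile acids up from the blood. As background on the marks, H3K4me3 is known at active promoters, H3K4me1 at enhancers, H3K27ac at both, and H3K27me3 in Polycomb-silenced chromatin.

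RefSeq promoter windows on GRCm38.p6, 250 bases before to 50 after a transcription start, were found for 8 of the 10 genes. Cyp7a1 and Baat are named here without a promoter. The following 3 sequences are the 250 bases before the start, 5′ to 3′ on the strand of the gene. They are shown because the upper 2 have a TATAAA element at nearly the same distance from the start but state 3 at the start in 5 strains and in 1 strain, and Abcb11 carries the letters AGGTCA of a nuclear receptor site. Capitals mark matches to TATAAA or to AGGTCA, read on either strand (TGACCT is AGGTCA on the other strand). Nr0b2 lies on the plus strand at chr4:133553126-133553375, Cyp8b1 on the minus strand at chr9:121916306-121916555, and Abcb11 on the minus strand at chr2:69342617-69342866.
Nr0b2: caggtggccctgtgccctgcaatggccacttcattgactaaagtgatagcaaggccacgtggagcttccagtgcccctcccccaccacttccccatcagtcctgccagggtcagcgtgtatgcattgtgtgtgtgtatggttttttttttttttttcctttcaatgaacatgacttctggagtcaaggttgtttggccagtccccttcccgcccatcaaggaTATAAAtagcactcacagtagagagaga
Cyp8b1: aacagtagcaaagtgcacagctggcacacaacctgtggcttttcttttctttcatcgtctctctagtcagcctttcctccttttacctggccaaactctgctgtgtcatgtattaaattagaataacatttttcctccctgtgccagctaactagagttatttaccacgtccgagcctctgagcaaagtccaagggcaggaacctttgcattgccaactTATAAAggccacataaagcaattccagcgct
Abcb11: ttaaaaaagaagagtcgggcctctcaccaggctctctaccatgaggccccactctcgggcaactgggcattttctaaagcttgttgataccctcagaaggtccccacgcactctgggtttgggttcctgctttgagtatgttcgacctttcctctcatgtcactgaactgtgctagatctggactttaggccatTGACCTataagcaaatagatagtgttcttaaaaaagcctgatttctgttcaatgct

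TATAAA began 28 bases before the start of Nr0b2 and 31 bases before that of Cyp8b1, and the match in Abcb11 began 56 bases before the start. Of 21045 promoter windows, 12.7% hold TATAAA and 14.6% hold AGGTCA on either strand. The windows of Slco1b2 and of the upstream start of Slc10a1 also hold TATAAA, but farther from the start. These matches began at positions -234 and -227 in Slco1b2 and, on the other strand, at -128 in Slc10a1. The windows of Nr1h4, Slco1b2 and the downstream start of Slc10a1 hold AGGTCA. None of the 9 windows of the 8 genes matched the inverted repeat of AGGTCA with 1 free base between (in 0.00475% of all windows), its direct repeat with 1 free base between (0.0475%), CAAGGTCA (1.29%), the HNF1 palindrome (0.00475%) or TGTTTAC (3.03%). All were read on both strands, and CAAGGTCA and both repeats contain AGGTCA. Such matches describe letters only.

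A second set of 4 sequences, again the 250 bases before a start, shows the range of CpG content among promoters with state 3 within 1 kb of the start in all 9 strains. Capitals mark CG. Slco1b2 lies on the plus strand at chr6:141629268-141629517 and Abcb4 on the plus strand at chr5:8893471-8893720. Slc10a1, on the minus strand, has an upstream start with the window chr12:80968706-80968955 and a downstream start with the window chr12:80968080-80968329.
Slco1b2: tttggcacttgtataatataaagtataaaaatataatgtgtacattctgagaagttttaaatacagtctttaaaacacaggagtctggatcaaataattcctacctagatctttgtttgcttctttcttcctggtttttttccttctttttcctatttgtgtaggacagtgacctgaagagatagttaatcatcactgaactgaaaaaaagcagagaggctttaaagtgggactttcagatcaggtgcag
Abcb4: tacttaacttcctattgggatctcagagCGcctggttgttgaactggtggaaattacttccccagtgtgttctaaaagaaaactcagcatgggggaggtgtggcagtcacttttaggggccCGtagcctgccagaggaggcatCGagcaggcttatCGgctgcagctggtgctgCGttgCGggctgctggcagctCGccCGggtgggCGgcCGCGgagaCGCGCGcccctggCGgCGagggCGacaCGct
Slc10a1, upstream start: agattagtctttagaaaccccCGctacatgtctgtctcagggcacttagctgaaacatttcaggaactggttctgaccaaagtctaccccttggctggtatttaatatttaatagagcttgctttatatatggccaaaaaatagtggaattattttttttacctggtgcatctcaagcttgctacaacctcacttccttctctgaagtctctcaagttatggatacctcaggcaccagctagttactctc
Slc10a1, downstream start: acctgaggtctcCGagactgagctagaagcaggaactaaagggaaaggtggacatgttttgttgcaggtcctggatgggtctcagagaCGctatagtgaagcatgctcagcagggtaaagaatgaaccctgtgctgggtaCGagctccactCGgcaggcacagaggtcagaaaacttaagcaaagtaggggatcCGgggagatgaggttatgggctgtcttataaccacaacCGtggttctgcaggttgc

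The label of the cells was checked on marker genes by the share of each gene's 200-bp bins (span padded by 2 kb) in states 1 to 12. This share had a median of 98.4% over 8 hepatocyte markers, with genes from 81.9% to 100%. It was 5.29% over 6 bile duct markers (0% to 71.3%), 3.77% over 6 Kupffer cell and leukocyte markers (0% to 94.4%), 30.9% over 6 endothelial markers (3.88% to 87.7%) and 4.03% over 6 stellate cell markers (1.04% to 11.7%). The list means moved over the strains between 93.0% and 97.9% for hepatocyte markers between 10.9% and 23.8% for bile duct, 13.7% and 21.1% for Kupffer cell and leukocyte, 30.4% and 36.9% for endothelial and 4.61% and 9.40% for stellate cell markers. The bile duct keratin Krt7 and the Kupffer cell receptor Marco were at 0% in all 9 strains. Other members of the same lists were higher, with means of 71.3% for Sox9 and 27.9% for Spp1 (bile duct) and 94.4% for Cd68 (Kupffer cell and leukocyte). Their part in the results below was not tested. States 13 and 14 made up most bins of protein-coding genes, and states 1 to 12 together covered 18.6% (PWK/PhJ) to 22.5% (129S1/SvImJ) of the bins of all protein-coding genes.

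All 10 bile acid genes lay above the median of protein-coding genes in their share of states 1 to 12. The median over the 10 was 97.5%, against 21.3% over all 21631 genes. A difference in the number of cells with a state and a difference in marks per cell cannot be told apart in these bulk samples. Of the 10, 7 had a mean share of at least 90%, which 8.26% of all genes reached. Cyp7a1, Cyp8b1 and Slc10a1 were at 100% in each of the 9 strains, as were 2.58% of all genes. Nr0b2 was at 99.7% ± 0.877, Nr1h4 at 97.9% ± 3.23, Baat at 97.1% ± 4.51 and Cyp27a1 at 92% ± 8.85 (SD, n = 9 for each). Slco1b2 followed with 85.7% ± 8.03 and Abcb4 with 85.5% ± 6.67. These neighbours in the order differed by less than their spread. Abcb11 was lowest at 51.2% ± 15, and its highest strain, at 74.4%, was below the lowest strain of the other 9 genes except Slco1b2 at 73.9%.

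State 13 was found in none of the 19026 bin and strain values of the 10 genes. Of all protein-coding genes, 51.3% had no state 13 bin in any strain. The bins outside states 1 to 12 in the 10 genes were therefore all in state 14. A bin in states 1 to 12 cannot be in state 13, so this absence follows in part from the high shares above. It was not compared with genes of a like share. None of the 8 hepatocyte markers had a state 13 bin either. States 5, 7, 10, 11 and 12 were also at 0 in the 10 genes in every strain, and each covered less than 1% of the bins of all genes.

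**Figure D1:**
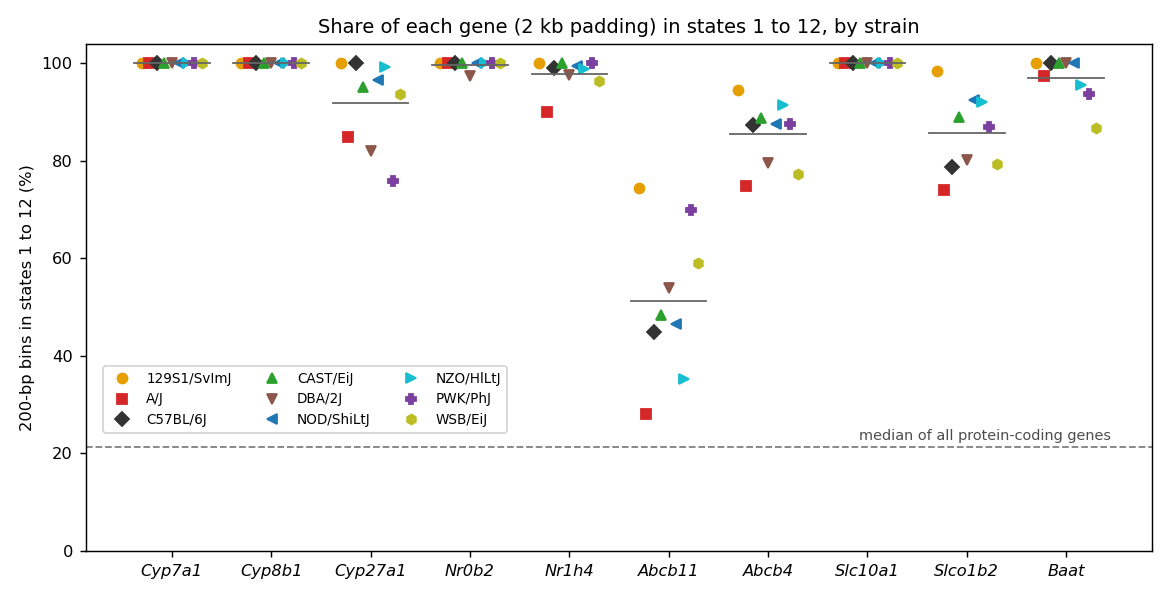
Share of 200-bp bins in states 1 to 12 (y axis, %) for each of the 10 genes, padded by 2 kb (x axis). Each point is 1 strain, the grey bar is the mean of 9 strains and the dashed line is the median of all protein-coding genes (21.3%). Cyp7a1, Cyp8b1 and Slc10a1 sit at 100% throughout, and Abcb11 runs from 28.2% in A/J to 74.4% in 129S1/SvImJ.

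Among the synthesis enzymes, Cyp7a1 (gene 13122, chr4:6265612-6275632) carried no state 3 bin in any of the 9 strains. State 3 was absent throughout in 41.0% of all protein-coding genes. Among the 559 genes that, like Cyp7a1, were fully in states 1 to 12 in every strain, 2.86% had no state 3 bin, and among the 1786 genes with a mean share of at least 90% it was 2.07%. State 1 covered 51.3% ± 14.3 of the bins of Cyp7a1, state 2 38.8% ± 18.6 and state 8 7.51% ± 7.42. State 6 was found in A/J (14.1%) and CAST/EiJ (4.23%), and state 4 in 1 bin each in PWK/PhJ and WSB/EiJ. State 1 covered 38% in DBA/2J and WSB/EiJ, the median strain had 49.3%, and NOD/ShiLtJ was highest at 84.5%. NOD/ShiLtJ was lowest in state 2, with 2.82% of the gene against 18.3% in A/J, the next lowest, and 60.6% in WSB/EiJ. State 2 was low in NOD/ShiLtJ in general: it covered 2.90% of the bins of all genes there, the lowest of the 9 strains. The longest stretch of Cyp7a1 in 1 state in all 9 strains was 1.4 kb of state 1 at chr4:6274201-6275600, at the upper-numbered end of the gene.

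Cyp8b1 (gene 13124, chr9:121914356-121916305, minus strand) was mostly in state 1, at a mean of 78.5% ± 11.2. State 1 covered 61.3% of its 31 bins in DBA/2J, 77.4% in the median strain and 96.8% in A/J. DBA/2J had 10 bins of state 3, while NOD/ShiLtJ and PWK/PhJ had 2, A/J had 1 and the other 5 strains had 0. In DBA/2J the state 3 bins formed 1 segment of 2000 bp, chr9:121914401-121916400, which reached from position -95 to 1904 bp relative to the start. This segment covers nearly the whole gene, whose span is 1950 bp. The bin at the start was in state 1 in the other 8 strains. The 400 bp of state 3 in PWK/PhJ lay inside the gene, whereas those in NOD/ShiLtJ and A/J lay more than 1 kb upstream of the start. A 2-kb stretch at and beyond the 3′ end, chr9:121912401-121914400, was in state 1 in all 9 strains.

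Cyp27a1 (gene 104086, chr1:74713148-74737897, plus strand) had state 3 at its start and, in 5 strains, state 14 at its far end. The state 3 segment by the start was 1600 bp long in DBA/2J, NOD/ShiLtJ, PWK/PhJ and WSB/EiJ, 1400 bp in C57BL/6J, 1000 bp in 129S1/SvImJ, 800 bp in NZO/HlLtJ, 600 bp in CAST/EiJ and 400 bp in A/J. A/J and CAST/EiJ had their segment begin 66 bp after the start, and the other 7 strains at position -134. With the gene cut into 4 equal parts, states 1 and 3 held 99.6% of the bins of the part at the start, and states 2 and 6 held 80.7% of part 3. In the last part states 1 to 12 covered 75.6% ± 30.6 of the bins, from 23.3% in PWK/PhJ to 100% in 129S1/SvImJ. States 1 to 12 covered parts 1 and 2 wholly in all 9 strains, so the split lay at the far end.

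The longest stretch of Cyp27a1 that was split between states 1 to 12 and state 14 was 7.4 kb, chr1:74732601-74740000. PWK/PhJ had 8.11% of its bins in states 1 to 12, A/J and DBA/2J 45.9%, WSB/EiJ 75.7%, CAST/EiJ 86.5% and the other 4 strains 100%. A shorter stretch of 1.2 kb next to it, chr1:74731201-74732400, was in state 14 in DBA/2J throughout. It had 16.7% in states 1 to 12 in NOD/ShiLtJ and 100% in the other 7 strains.

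Baat (gene 12012, chr4:49489416-49507915) held 1 main state 3 segment near its upper-numbered end. It was 800 bp in A/J, 1400 bp in C57BL/6J and NOD/ShiLtJ, 1600 bp in 129S1/SvImJ and WSB/EiJ, 1800 bp in NZO/HlLtJ and PWK/PhJ, and 2200 bp in CAST/EiJ and DBA/2J. The neighbouring stretch chr4:49500801-49504400, 3.6 kb, was in state 1 in all 9 strains. The split stretch chr4:49494001-49497200 in the lower-numbered part of the gene had 6.25% of its bins in states 1 to 12 in WSB/EiJ, 56.3% in PWK/PhJ, 68.8% in NZO/HlLtJ, 81.3% in A/J and 100% in the other 5 strains. NOD/ShiLtJ differed in another way, with state 8 over 23.0% of the gene and state 2 over 4.42%. Elsewhere state 8 reached 5.31% and state 2 was 23.9% or more. State 8 was highest in NOD/ShiLtJ over all genes too, at 2.20% of bins.

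**Figure D2:**
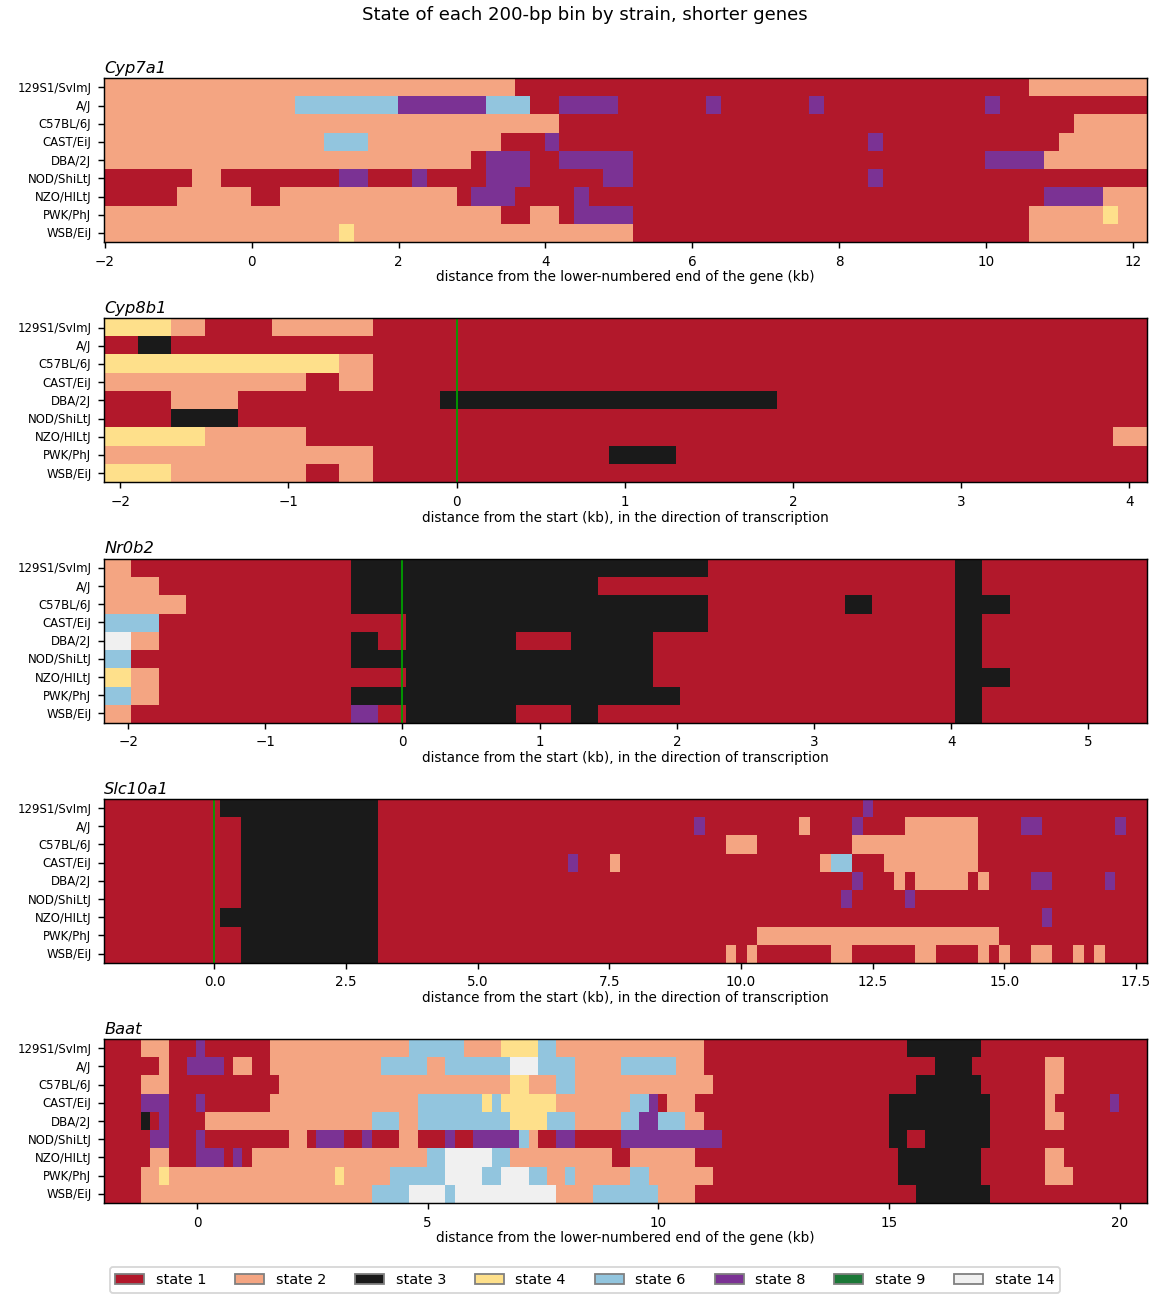
State of each 200-bp bin (colour) in the 9 strains (rows) along the 5 shorter genes, by distance in kb from the start in the direction of transcription (green line), or from the lower-numbered end for Cyp7a1 and Baat. Cyp7a1 has no state 3, Cyp8b1 has a long state 3 segment in DBA/2J, and the 2.6 kb of state 3 in Slc10a1 are shared by all 9 strains.

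The nuclear receptor gene Nr1h4 (gene 20186, chr10:89454234-89533645, minus strand) carried state 3 at the tabled start and again near the outer end of its span. The tabled start, chr10:89506658, lies inside the span. The state 3 segment there was 1600 bp in 6 strains and 1400 bp in A/J, NOD/ShiLtJ and WSB/EiJ, and its upstream border was the same in all 9. At the outer end, a block of 1400 bp (chr10:89532201-89533600) was in state 3 in 6 strains and was broken up in A/J, NOD/ShiLtJ and PWK/PhJ. State 1 covered 34.3% ± 4.65 of the gene and state 2 covered 38.8% ± 10.2, with state 2 lowest in NOD/ShiLtJ (23.4%) and highest in PWK/PhJ (57.7%).

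One stretch of Nr1h4 set A/J apart from the other 8 strains. Over 6.4 kb, chr10:89477601-89484000, from 22.7 to 29.1 kb after the tabled start, all 32 bins were in state 14 in A/J and in states 1 to 12 in the other 8 strains. A stretch of 1 kb near it, chr10:89475601-89476600, was in state 14 in WSB/EiJ and in states 1 to 12 in the other 8. A stretch of 2.6 kb across the far end of the gene, chr10:89453201-89455800, had 23.1% of its bins in states 1 to 12 in A/J and DBA/2J, 38.5% in WSB/EiJ, 61.5% in NZO/HlLtJ, 69.2% in C57BL/6J, 84.6% in NOD/ShiLtJ and 100% in the other 3. A/J had 71 of the bins of the 10 genes in which 1 strain differed from 8 that shared a state. Of these 71, 35 were in Nr1h4. Such bins of A/J made up 3.36% of the bins of the 10 genes, against 1.25% over all protein-coding genes. NOD/ShiLtJ had 60 (2.84% against 1.64%), PWK/PhJ 48 (2.27% against 3.58%), WSB/EiJ 35 (1.66% against 2.15%) and C57BL/6J the fewest, 10 (0.473% against 0.692%).

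Nr0b2 (gene 23957, chr4:133553376-133556686, plus strand) had the largest share of state 3 of the 10 genes, 30.1% ± 7.68 of its 38 bins. It ranged from 15.8% in WSB/EiJ through a median of 31.6% to 42.1% in C57BL/6J. Most of the rest was state 1, at 64.9% ± 8.0. The longest state 3 segment was 2600 bp in 129S1/SvImJ and C57BL/6J, 2400 bp in PWK/PhJ, 2200 bp in CAST/EiJ and NOD/ShiLtJ, 1800 bp in A/J and NZO/HlLtJ, and 800 bp in DBA/2J and WSB/EiJ. It began at position -375 in 5 strains and 25 bp after the start in CAST/EiJ, DBA/2J, NZO/HlLtJ and WSB/EiJ. In DBA/2J the state 3 bins between positions -375 and 1824 lay in 3 pieces, and in WSB/EiJ those between 25 and 1424 bp lay in 2. Another state 3 bin, 4025 bp after the start, was present in all 9.

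Of the canalicular transporters, Abcb11 (gene 27413, chr2:69238282-69342616, minus strand) had a similar start in all strains and a variable body. The state 3 segment at the start was chr2:69341201-69342600, 1400 bp, in 6 strains and 1800 bp in 129S1/SvImJ, DBA/2J and NOD/ShiLtJ. States 1 to 12 covered 92.8% ± 9.23 of the part at the start, 65.6% ± 20.95 of part 2, 17.4% ± 14.9 of part 3 and 28.2% ± 20.2 of part 4. Over genes with a mean share of at least 50%, 4526 in number, the medians of the 4 parts were 100%, 98.0%, 87.0% and 75.7%. State 14 held a stretch of 5.4 kb in all 9 strains, chr2:69273601-69279000, from 63.6 to 69 kb after the start. No other of the 10 genes had state 14 as its longest shared stretch.

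In all, 3 long stretches of Abcb11 were split between the strains. The longest, 12.2 kb (chr2:69282201-69294400), was in states 1 to 12 for 8.20% of its bins in A/J, 54.1% in CAST/EiJ, the median strain, and 86.9% in PWK/PhJ. The next, 9 kb across the far end of the gene (chr2:69237401-69246400), was at 0% in A/J, 11.1% in the median strain NOD/ShiLtJ, 53.3% in PWK/PhJ and 97.8% in 129S1/SvImJ. In the 6.4 kb of chr2:69258601-69265000 the range was from 6.25% in A/J to 78.1% in 129S1/SvImJ. In all 3 stretches A/J was lowest, and 129S1/SvImJ and PWK/PhJ were the 2 highest. State 4 ran in the same order at the extremes. It covered 1.10% of Abcb11 in A/J, 14.4% in the median strain and 36.1% in 129S1/SvImJ. State 4 was also lower in A/J than in 129S1/SvImJ in general, at 3.04% and 4.80% of the bins of all genes.

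Abcb4 (gene 18670, chr5:8893614-8959226, plus strand) had the longest stretch of 1 state shared by all strains. This was 10.4 kb of state 1, chr5:8895001-8905400, which followed the state 3 segment at the start. That segment was 1200 bp in 7 strains, 1400 bp in PWK/PhJ and 1000 bp in WSB/EiJ, and began at position -120 in all 9. The unbroken run of states 1 and 3 measured 13.6 ± 0.474 kb, from 13 kb in CAST/EiJ to 14.6 kb in NOD/ShiLtJ. State 4 covered 38.1% ± 7.34 of the gene, and part 4 was 28.997% ± 10.1 state 14. In the split stretch of 8.6 kb at chr5:8911401-8920000, WSB/EiJ had 6.98% in states 1 to 12, the median strain C57BL/6J 79.1% and 129S1/SvImJ 100%. In the 5.6 kb of chr5:8931401-8937000 A/J was lowest at 14.3%. In the 3.2 kb of chr5:8948801-8952000 NOD/ShiLtJ had 18.8%, A/J 43.8% and the other 7 strains 100%.

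Of the uptake transporters, Slc10a1 (gene 20493, chr12:80953185-80968705, minus strand) differed least between strains in the bin by bin comparison below. A state 3 segment of 2600 bp, chr12:80965601-80968200, was shared by all 9 strains, and it extended to 80968600 in 129S1/SvImJ and NZO/HlLtJ. In the other 7 strains it began 505 bp after the upstream start, so the bin at that start was in state 1 in all 9, as at 3.87% of all starts. The downstream start, chr12:80968079, lay within the state 3 segment in all 9 strains. State 1 covered 76.1% ± 6.98 of the gene and state 2 covered 8.53% ± 7.91, from 0% in 129S1/SvImJ, NOD/ShiLtJ and NZO/HlLtJ to 23.2% in PWK/PhJ.

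Slco1b2 (gene 28253, chr6:141629452-141686646, plus strand) had a shared first part and a body that differed from strain to strain. State 3 at the start spanned 1400 bp in PWK/PhJ, 2200 bp in the median strain and 3000 bp in 129S1/SvImJ. State 1 then ran unbroken in all 9 strains over the 7 kb of chr6:141633601-141640600. The run of states 1 and 3 was 14.5 ± 1.86 kb long. Beyond it state 6 covered 6.51% of the gene in CAST/EiJ, 18.2% in the median strain and 40.7% in NOD/ShiLtJ. State 4 covered 12.4% in A/J and NOD/ShiLtJ and 45.3% in CAST/EiJ. Over all genes too, state 4 was lowest in NOD/ShiLtJ (2.39% of bins) and highest in CAST/EiJ (4.88%).

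A stretch of 14 kb across the end of Slco1b2, chr6:141673401-141687400, formed the longest split stretch of the 10 genes. States 1 to 12 covered 14.3% of it in A/J, 21.4% in C57BL/6J, 35.7% in DBA/2J, 47.1% in WSB/EiJ, 57.1% in PWK/PhJ, 65.7% in NZO/HlLtJ, 67.1% in CAST/EiJ, 85.7% in NOD/ShiLtJ and 100% in 129S1/SvImJ. The 9 values spread over most of the scale. In the 3.8 kb of chr6:141664401-141668200 they ran from 15.8% in A/J and DBA/2J to 100% in NZO/HlLtJ. By contrast, in the 1.6 kb of chr6:141643201-141644800 CAST/EiJ alone was in state 14, and the other 8 strains were wholly in states 1 to 12.

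**Figure D3:**
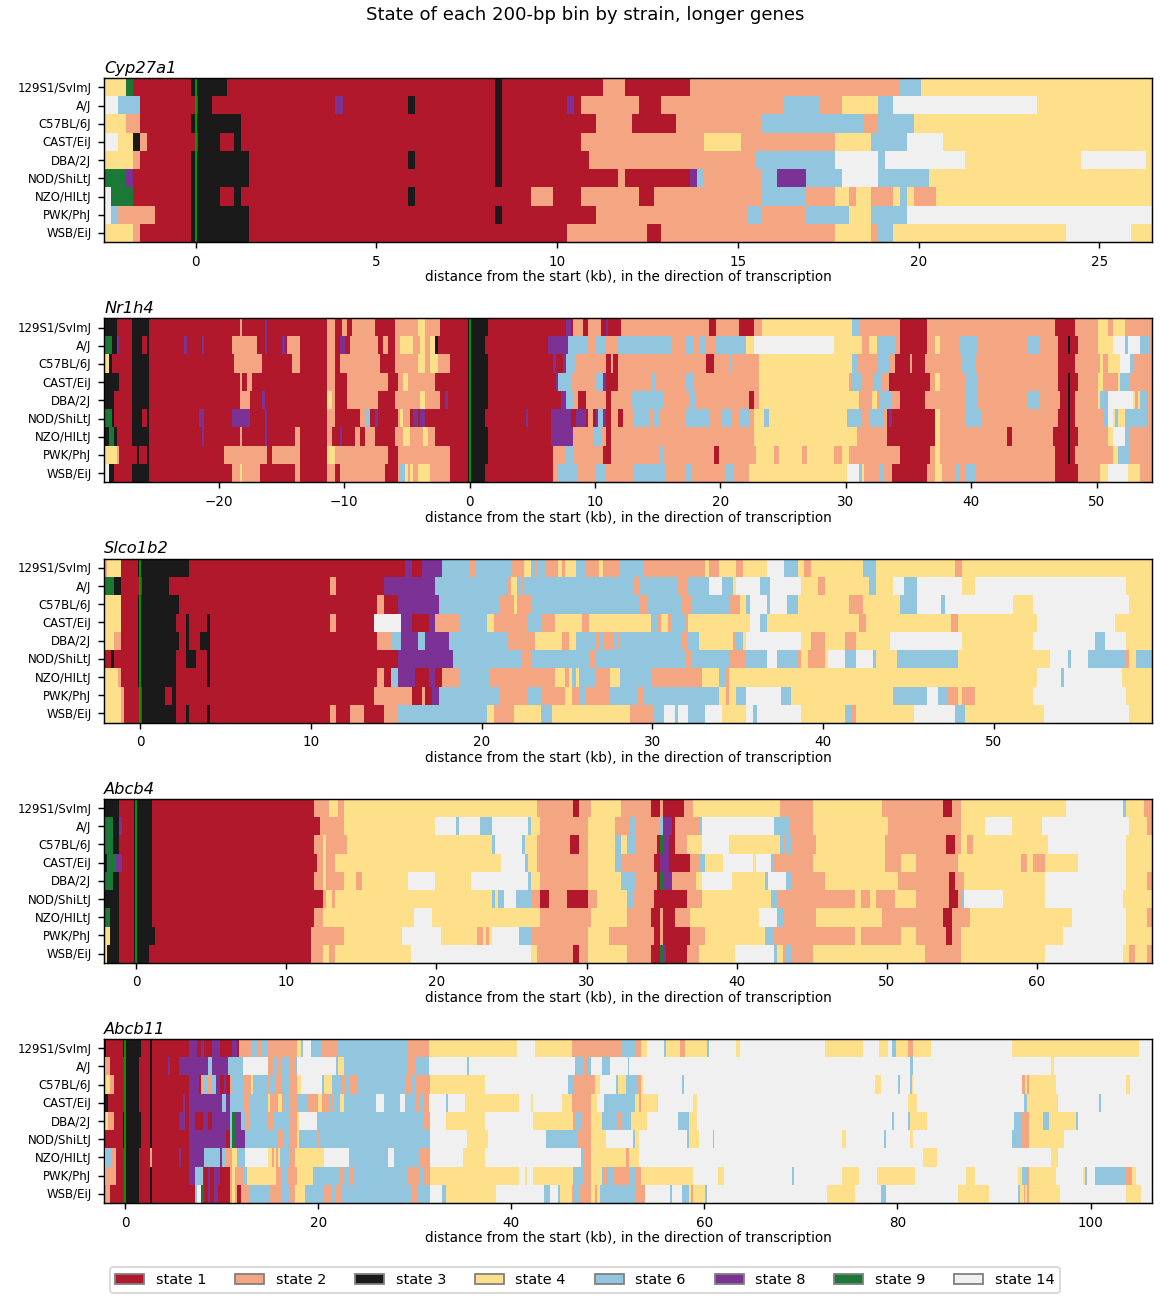
State of each 200-bp bin (colour) in the 9 strains (rows) along the 5 longer genes, by distance in kb from the tabled start in the direction of transcription (green line). State 3 and a run of state 1 at the start recur in all rows, while states 2, 4, 6 and 14 differ between rows farther on. The 6.4 kb of state 14 in A/J show as a pale block in Nr1h4.

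State 3 was compared between both ends of each gene as the share of bins in state 3 within 1 kb of the start and within 1 kb of the end. Of the 8 genes with a tabled start, 7 had more state 3 at the start by an exact permutation test that flips the sign of each strain's difference (two-sided), adjusted p = 0.00988 for each (Benjamini-Hochberg over 17274 genes). The same call was made for 42.7% of the 17274 genes, and 0.955% were called in the other direction. The smallest p that 9 strains allow is 0.00391, so this test cannot rank the 7 genes. The difference was 54.5 ± 0 percentage points at Nr1h4, 53.5 ± 3.03 at Abcb4, 51.5 ± 4.55 at Slco1b2, 48.5 ± 4.55 at Abcb11, 44.4 ± 14 at Cyp27a1, 42.4 ± 12.0 at Nr0b2 and 31.3 ± 8.02 at Slc10a1, higher at the start in 9 of 9 strains each. Nr0b2 was the 1 gene of these 7 with state 3 at its end as well, 12.1% ± 6.43 of the bins.

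Cyp8b1 was not called, with 7.07% ± 18.1 at the start and 7.07% ± 15.6 at the end (adjusted p = 1 in the same exact permutation test). Its 2 windows overlap, since the gene is shorter than the 2 windows together. Slc10a1 lost its call with a window of 0.5 kb, where the difference was 7.41 points and the adjusted p of the permutation test was 1. Its state 3 segment begins 505 bp after the upstream start in 7 strains.

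**Figure D4:**
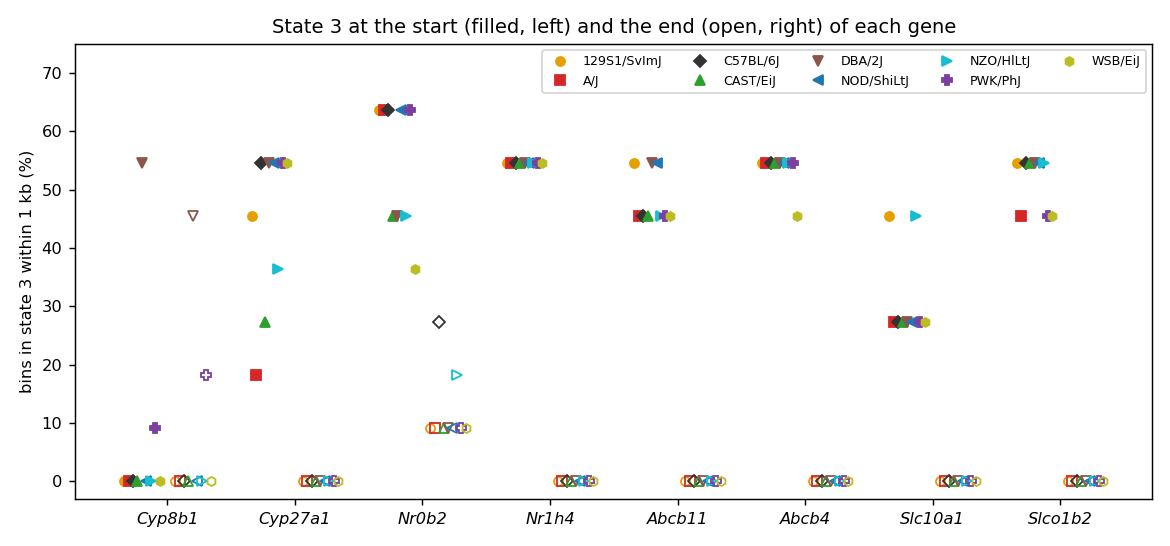
Share of bins in state 3 (y axis, %) within 1 kb of the start (filled, left) and of the end (open, right) of the 8 genes with a tabled start; each point is 1 strain. All 9 filled points lie above the open ones in 7 genes. In Cyp8b1 the high points are those of DBA/2J, 54.5% at the start and 45.5% at the end.

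The bin at the start itself was in state 1 or state 3 in all 9 strains in 8 of the 8 genes, which held for 42.5% of the 17274 genes. In 5 of the 8 the 2 states alternated between strains: Cyp27a1 was in state 3 in 7 strains, Slco1b2 in 6, Nr0b2 in 5, Abcb11 in 3 and Cyp8b1 in 1. Such a mixture was found in 6.52% of all genes. Nr1h4 and Abcb4 were in state 3 in all 9 strains, as were 32.1% of all genes. The strains that have state 1 at a start carry their state 3 segment a short way downstream: 16 bp at Abcb11, 25 bp at Nr0b2, 66 bp at Cyp27a1 and 83 bp at Slco1b2. In Nr0b2 of DBA/2J another state 3 bin lies upstream, so its start falls in a gap between state 3 bins. Cyp8b1 differs, since 7 of the 8 strains with state 1 at its start have no state 3 within the gene or 1 kb upstream, and PWK/PhJ has 400 bp.

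State 3 at a start went with CpG content over all genes, by classes chosen after the sequences had been seen. The start bin was in state 3 in 1.77% ± 0.263 of 3222 genes with 0 to 2 CpG in the 300-base window, in 9.93% ± 0.783 of 4051 genes with 3 to 9, and in 62.9% ± 1.54 of 10001 genes with 10 or more. The bile acid promoters were mostly poor in CpG, with a median window of all promoters at 13. Slco1b2 had 0, the upstream start of Slc10a1 2, Nr0b2 3, Abcb11 4, Cyp8b1 5, Nr1h4 7, Cyp27a1 10 and Abcb4 21. Of the 6 genes with at most 9 CpG, 5 were called higher in state 3 at the start, against 9.49% of the 7273 genes in that class. Both genes with 10 or more were called, against 66.8% of their class. These 2 classes were formed by CpG content alone and were not matched for the share of states 1 to 12. The bile acid genes lay above the median of all genes in that share. How much of the contrast with either class goes with it was not tested. In the sequences above, Slco1b2 has no CG in the 250 bases before its start and Abcb4 has 18, and both had state 3 within 1 kb of the start in all 9 strains.

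The strains were next compared bin by bin, as the share of a gene's bins that carried different states, averaged over the 36 pairs of strains. The median over the 10 genes was 30.5%, against 19.7% over all protein-coding genes, and 8 of the 10 lay above that median. The 1786 genes with at least 90% in states 1 to 12 gave a nearer value, a median of 27.6% with quartiles of 21.4% and 34.8%. Of the 10 genes 7 reach that share, and Slco1b2, Abcb11 and Abcb4 do not. Slco1b2 differed most (40.1%), followed by Abcb11 (36.2%), Baat (34.5%), Cyp7a1 (31.7%), Cyp27a1 (31.4%), Nr1h4 (29.5%), Abcb4 (28.0%) and Cyp8b1 (26.1%). Nr0b2 and Slc10a1 differed least, at 15.6% and 15.5%. With a padding of 5 kb in place of 2 kb Nr0b2 stood at 26.7%. The top of this order depended on shared state 14 bins. With only bins outside state 14 in at least 1 strain, Abcb11 stood at 43.7%, above Slco1b2 at 40.1%. When a match within 1 bin to either side was allowed, the median of the 10 genes was 18.6% and that of all genes 10.9%. It was 13.1% over the 1786 genes. Nr0b2 then stood at 2.70%, Slc10a1 at 6.29% and Slco1b2, the highest, at 26.7%.

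The states that replaced each other were not the same in all genes. In Nr0b2, 69.2% of the differences between pairs were exchanges of states 1 and 3. In Slc10a1, 73.0% were exchanges of states 1 and 2, and in Cyp7a1 47.8%. In Abcb11, Abcb4 and Cyp27a1 exchanges of states 4 and 14 led, with 46.5%, 39.6% and 33.6%. Slco1b2 was mixed, with 22.4% between states 4 and 14, 20.01% between 4 and 6, and 18.0% between 2 and 6. In Baat exchanges of states 1 and 2 led, with 27.3%. In Nr1h4 exchanges of states 1 and 2 (28.3%) and of states 2 and 6 (28.0%) were nearly equal.

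Of the 2114 bins of the 10 genes, 699 carried the same state in all 9 strains. State 1 made up 56.4% of these and state 14 15.5%, with 93 of the 108 state 14 bins in Abcb11. The same count over all protein-coding genes is not given here, so 699 cannot be called high or low. Slc10a1 and Nr0b2 had the highest shares of such bins, 60.6% and 65.8%, and Slco1b2 the lowest, 22.1%. State 8 held no bin in all 9 strains at once.

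**Figure D5:**
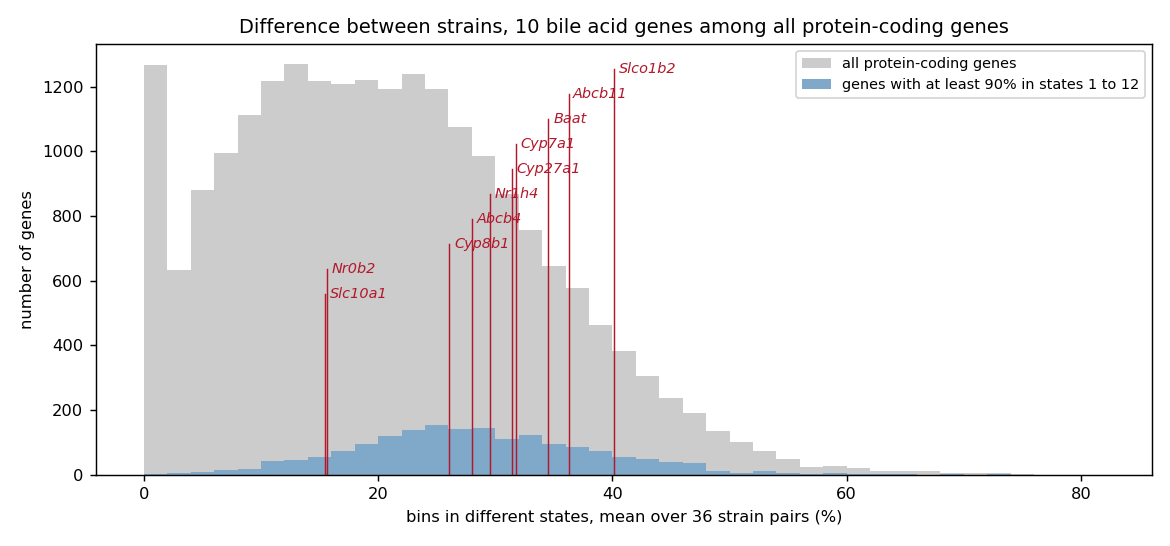
Number of genes (y axis) by the share of bins in different states, averaged over 36 strain pairs (x axis, %). Grey shows all protein-coding genes, blue those with at least 90% in states 1 to 12, and red lines the 10 bile acid genes. Slc10a1 and Nr0b2 lie below the median of all genes (19.7%), and the other 8 lie above it.

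The share of states 1 to 12 ranged over at least 10 percentage points in 6 of the 10 genes, against 51.6% of all genes. Of these 6, A/J alone was lowest in 4: Nr1h4 (89.95%), Abcb11 (28.2%), Abcb4 (74.8%) and Slco1b2 (73.9%). Among all 11157 genes with such a range, A/J alone was lowest in 5.33%, and among those with a mean share of at least 50% in 5.34%. PWK/PhJ was lowest in Cyp27a1 (75.9%) and WSB/EiJ in Baat (86.7%). 129S1/SvImJ was alone highest in 3 of the 6, Abcb11, Abcb4 and Slco1b2, against 11.1% of the 11157 genes and 12.1% of the 4512 with a mean share of at least 50%. In Cyp27a1, Nr1h4 and Baat it tied with other strains at 100%. Highest or tied, 6 of 6, compares with 19.6% and 30.0%. These counts were chosen after the values had been seen, and 1 segmentation per strain allows no test of a strain. Over all bins of the 10 genes, states 1 to 12 covered 70.4% in A/J and 92.3% in 129S1/SvImJ. The other 7 strains lay from 80.2% to 86.4%. Over all protein-coding genes A/J had 21.1%, close to the mean of 21.1% ± 1.18, and 129S1/SvImJ had 22.5%, the highest. State 4 alone covered 3.04% of the bins of all genes in A/J and 4.80% in 129S1/SvImJ, with a mean of 3.75% ± 0.819. How far depth or library quality of a strain moves with these values was not tested, since the files give neither.

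The wider pathway was described with 37 further genes, all of them found. Their median share of states 1 to 12 was 74.2%, against 21.3% over all genes. Of the 37, 15 had at least 90%, which 8.26% of all genes reached. The highest were Nr1i3, which encodes the receptor CAR, and Rxra, the partner of FXR, both at 100% in all 9 strains, and Slc27a5, a bile acid CoA ligase, at 99.5% ± 1.43. The lowest were Fabp6, the ileal bile acid binding protein, at 0% in every strain, Slc51a, a subunit of the basolateral bile acid exporter, at 2.14% ± 4.89, and Abcc4, an efflux pump, at 13.6% ± 2.12. Of the 30 with a tabled start, 17 were called higher in state 3 at the start, 0 at the end and 13 were not called, beside 42.7% and 0.955% of all genes in the 2 directions. No state 3 was found in 6 of the 37 in any strain (41.0% of all genes), and 8 had some state 13 (48.7% of all genes). The largest differences between strains were those of Abcg5, a sterol transporter (46.3%), Nr1h3, the oxysterol receptor LXR alpha (41.0%) and Scp2, the peroxisomal thiolase of side chain cleavage (40.2%).

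Slco1b2 had the highest pair difference of the 10 when all bins were counted. The genes most like it in their share of states 1 to 12 over the 9 strains were Sh2d1b2 (Pearson r = 0.928, Spearman rho = 0.904), Zfp608 (0.916 and 0.883) and Tspyl5 (0.909 and 0.929). They were the top 3 of 11156 genes compared and are given as a description. Without 129S1/SvImJ and A/J, the strains farthest from the median of Slco1b2, r was 0.935, 0.801 and 0.795 over 7 strains. Those 7 are among the 9 on which the genes were picked, so these values are no independent check. The share in Sh2d1b2 ran from 7.02% to 21.1%. The likeness of Cyp7a1 could not be measured, because its share was 100% in every strain.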

How the data were processed

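Chromatin immunoprecipitation libraries for 4 histone marks and inputs (117 in all) came from 9 strains. The authors deposited 1 segmentation per strain, whose column 4 is a category (state number 1 to 14), not a score or a depth. The submitters' processing notes name the build mm10, FastQC 0.11.5 and MACS 1.4.2. The aligner and the segmentation tool are not given in the sources used here. States were read in 200-bp bins over each gene span padded by 2 kb, with RefSeq gene spans and promoter windows on GRCm38. Percentages were computed per strain with Python 3.11.15, numpy 2.4.6 and pandas 2.3.3. The start and end test enumerated all 512 sign patterns of 9 strains, with Benjamini-Hochberg adjustment over all genes with a start, and genes were called at an adjusted p of at most 0.05. Its code was run on simulated data with planted differences and independent strains, which does not show how it behaves with related strains. P-values rest only on the 9 strains, which are related. A gene whose 9 differences have the same sign gets the smallest p, whatever their spread. All 10 genes are named, with their longest stretches split between strains (at least 3 bins, at most 3 per gene), and of the wider pathway the 3 highest and the 3 lowest shares and the 3 largest pair differences. The genes, lists and tests were chosen with earlier results of these data known. Alternatives were padding, bin size, window, removal of single-bin segments, merging of states and leaving out each strain.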

Additional observations from a re-analysis of the deposited data

Results flagged for a closer look

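In each gene, the highest and lowest strain were compared with the other 8 for the share of states 1 to 12, the mean pair difference and the longest run of states 1 and 3. Of 30 sets of 9 values, 3 had no range and could not be called. In the other 27, 7 had a strain whose gap to the next, divided by the whole range, was above Dixon's critical value for 9 values. Chance gives this in about 5% of sets of normal values. Shares are capped at 100%, so their sets are not normal, and the share in Nr0b2 rests on 1 bin of 38. The mean pair differences of the 9 strains share pairs and are not independent, and run lengths move in steps of 200 bp. The 5% is therefore no exact yardstick for any of these sets.

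In Cyp8b1, DBA/2J differed from the other strains in a mean of 47.98% of bins, and the next strain stood at 26.6%. In Cyp27a1, the longest run of states 1 and 3 was 6.2 kb in A/J and 11 kb in the next strain, and the run in A/J was ended by 1 bin of state 8, chr1:74717401-74717600. In Nr0b2, states 1 to 12 covered 97.4% in DBA/2J and 100% in the other 8 strains. In Nr0b2 the run of states 1 and 3 was 5.6 kb in WSB/EiJ and 7 kb in the next strain, with 1 bin of state 8 at chr4:133553001-133553200. In Nr1h4, states 1 to 12 covered 89.95% in A/J and 96.4% in the next strain. In Baat, they covered 86.7% in WSB/EiJ and 93.8% in the next strain. In Baat, NOD/ShiLtJ differed from the other strains in 51.1% of bins, and the next strain stood at 37.3%.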

How the results depend on the processing

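The median share of states 1 to 12 over the 10 genes was 92.8% with a padding of 5 kb, against 97.5%, and 97.2% to 98.2% when 1 strain was left out. The median pair difference was 18.6% when a match within 1 bin counted as the same state, against 30.5%, and 27.3% (without NOD/ShiLtJ) to 31.7% (without C57BL/6J) when 1 strain was left out. Genes called higher in state 3 at the end numbered 101 with a window of 0.5 kb and 305 with 2 kb, against 165, and 140 to 149 without 1 strain. Genes called higher at the start numbered 7151 to 7213 without 1 strain, against 7372, 6576 with single-bin segments removed, the lowest, 7570 with only genes that hold state 3, the highest, and 7044 with the outer end of the span as the start, an alternative chosen after seeing the data. Of the 8 bile acid genes tested, 7 were called in each of these settings except the window of 0.5 kb, where 6 were. Over the alternatives run, 18 values of single genes moved beyond their spread, 1 lost its call (Slc10a1) and no called value changed direction. The start minus end value of Cyp8b1, not called, was -1.14 points without DBA/2J and 1.14 without PWK/PhJ. Merging states 13 and 14, or counting every state other than 14, could not move a value of the 10 genes, which hold no state 13. No paired analysis was possible because the replicate numbers mark mice and there is 1 segmentation per strain; start and end were paired within strains. Depth and signal are unknown, so the limits they set on a state could not be measured.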
